A study of Homo sapiens with 12 samples.

Results

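The mRNAs of 8 heat shock chaperones, HSPA1A, DNAJB1, HSPA8, HSP90AA1, HSP90AB1, HSPH1, HSPD1 and HSPE1, were followed across an ALKBH5 knockdown and a block of transcription. The genes were chosen by name as the main cytosolic and mitochondrial heat shock chaperones, and all 8 were among the 9529 genes of the expression table. The cells were NOMO-1, an established human acute myeloid leukaemia line with monocytic features, transduced with lentivirus and selected with puromycin. The control arm carried a hairpin named shNS and the knockdown arm carried 1 of 2 hairpins against ALKBH5, an enzyme that removes the N6-methyladenosine mark from RNA. Both arms received actinomycin D, which stops transcription, and poly(A) RNA was sequenced at 0, 8 and 12 h. The 6 groups were therefore shNS at 0, 8 and 12 h and shALKBH5 at 0, 8 and 12 h, with 2 libraries each.

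The shNS libraries were 2 replicates. The knockdown libraries of a group were 1 from each hairpin, so no hairpin had a replicate. Column names call the knockdown lines D and E, and the sources used here do not give which letter belongs to which hairpin number. No source says whether replicates came from separate cultures, so the p-values measure how far these libraries spread. That spread may be technical, and in the knockdown groups it also holds any difference between the 2 hairpins. The treatment text of the labels describes a virus aimed at FTO, and treatment with CS1 or CS2, whereas every title names shNS or shALKBH5, and the titles were followed.

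Chaperones bind unfolded proteins and help them fold. HSP70 proteins work in cycles of ATP use that J-domain proteins such as DNAJB1 start and nucleotide exchange factors such as HSPH1 complete, and HSP90 takes over kinases and other clients at a later stage. In mitochondria, HSPD1 (HSP60) forms the folding chamber and HSPE1 (HSP10) its lid. Heat shock factor 1 switches on the stress-inducible members through heat shock elements, arrays of the unit GAA and its complement TTC in alternating orientation, while HSPA8 and HSP90AB1 are the abundant everyday forms.

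The heat shock elements in the promoters show which members carry the DNA feature for which the family is known. RefSeq promoter windows of GRCh38.p14, from 250 bases before to 50 bases after a start site, matched all 8 genes, in 14 windows. The motif of 3 alternating units, TTCNNGAANNTTC or GAANNTTCNNGAA, was searched on both strands and lay in 4 of the 14 windows, from 4 genes, against 0.49% of all 35116 windows. The shorter motif of 2 units, TTCNNGAA or GAANNTTC, is contained in the longer one and lay in 7 of the 14 windows, from 6 genes, against 13.5% of all windows. The 30 bases around the longest run in those 6 genes are printed below with the motif in capitals, each on the strand of its gene.
HSPA1A: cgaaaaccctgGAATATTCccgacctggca
DNAJB1: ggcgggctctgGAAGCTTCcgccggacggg
HSPA8: cgggccccTTCTGGAAGGTTCtaagatagg
HSP90AA1: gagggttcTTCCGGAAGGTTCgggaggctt
HSP90AB1: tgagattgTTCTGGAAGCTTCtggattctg
HSPD1: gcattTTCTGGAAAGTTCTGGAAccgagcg

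In the order printed, these windows are chr6:31815426-31815455 on the plus strand, chr19:14518426-14518455 on the minus strand, chr11:123062170-123062199 on the minus strand, chr14:102087111-102087140 on the minus strand, chr6:44247823-44247852 on the plus strand and chr2:197500061-197500090 on the minus strand. The first base of the motif lay 106 bases before the start site of its window in HSPA1A, 47 in DNAJB1, 55 in HSPA8, 88 in HSP90AA1, 112 in HSP90AB1 and 245 in HSPD1. DNAJB1, HSP90AA1, HSP90AB1 and HSPD1 also had windows at other start sites that held neither motif. For HSP90AB1 these sites were chr6:44246194 and chr6:44247101, both upstream of the site of the printed window, chr6:44247943. HSPD1 and HSPE1 are neighbours read in opposite directions, with the 2 RefSeq start sites of these windows 539 bases apart, and the HSPD1 run lay 294 bases before the HSPE1 start site, just outside the window searched for HSPE1. The windows of HSPE1 and HSPH1 held neither motif, which says only that these letters are not in those windows.

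The deposited values are a normalised signal whose unit the sources used here do not give. The sum over all genes was 826000 to 953211 at 0 h, 390103 to 580217 at 8 h and 143765 to 193639 at 12 h, while the median of 46 ERCC spike-in RNAs stayed between 29.9 and 33.1, so the signal keeps the general loss of mRNA after actinomycin D. The 8 chaperones together made up 0.565% of the summed signal in line D at 0 h, 0.354 to 0.376% in the other 0 h libraries and 0.262 to 0.307% at 12 h. ALKBH5 (chr17:18183078-18209954, GRCh38) had a signal of 84.3 and 78.6 in the shNS replicates at 0 h and 25.4 and 21.2 in lines D and E, and it was lower in both knockdown lines at every time. Of 11 myeloid markers 8 were rows of the table, and their summed signal at 0 h was 848 to 905 in shNS and 1126 to 1503 in the knockdown; MPO, CSF1R and CD14 had no row. The part of this marker difference in the chaperone results was not tested. In bulk RNA, fewer cells expressing a gene and less of its RNA per cell cannot be told apart.

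HSPA1A, the stress-inducible HSP70, and DNAJB1, the J-domain partner induced with it, were the members that differed between the arms. Limma was fitted to log2(signal + 1) over all 9529 genes with Benjamini-Hochberg adjustment, and a gene was called at an adjusted p under 0.05. At 8 h HSPA1A and DNAJB1 were called lower than shNS, 2 of 8 members against 4.51% of all genes. At 12 h HSPA1A was lower, 1 of 8 against 0.493%. Averaged over the 3 times within each line or replicate, HSPA1A was again lower, 1 of 8 against 2.42%. At 0 h none of the 8 was called, against 1.33% of all genes higher and 0.136% lower, and 4 of 8 had an unadjusted p under 0.05 against 22.2% of all genes. No member was called higher in the knockdown at 8 h (0.42% of all genes), at 12 h (0.525%) or over the times (2.72%).

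**Figure D1:**
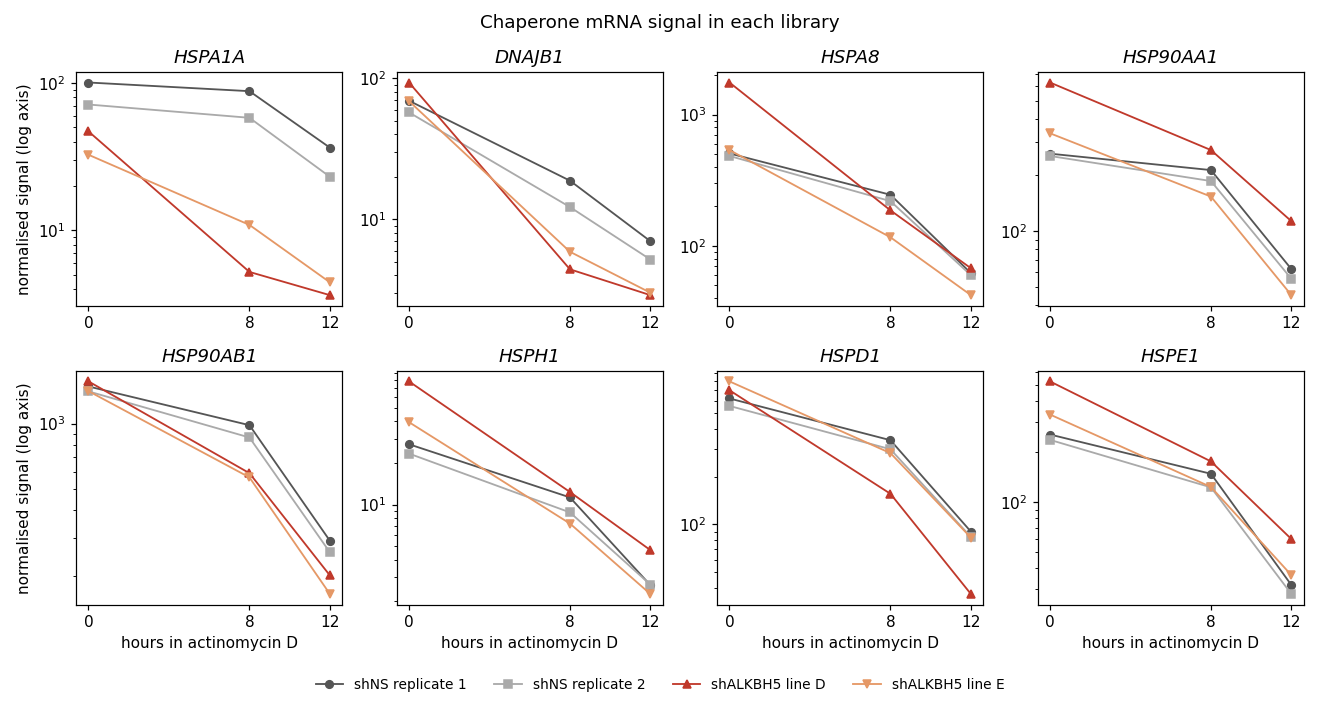
Normalised signal (log axis) of each chaperone mRNA against hours in actinomycin D, with 1 line per library series: 2 shNS replicates and knockdown lines D and E. HSPA1A of both knockdown lines lies under both shNS replicates at every time. Line D starts above all other libraries for DNAJB1, HSPA8, HSP90AA1, HSP90AB1, HSPH1 and HSPE1.

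HSPA1A (chr6:31815464-31817946, plus strand, GRCh38, 1 exon) lies near HSPA1B (chr6:31827735-31830255), a nearly identical copy that had no row in the table. The sources used here do not give how reads shared by the 2 genes were assigned, so every HSPA1A value is uncertain as to its gene. The HSPA1A signal at 0 h was 101 and 71.5 in shNS replicates 1 and 2, and 47.0 and 32.6 in lines D and E. At 8 h it was 88.1 and 58.1 in shNS, and 5.24 and 10.9 in lines D and E. Both knockdown libraries were below both shNS libraries, and the gap at 8 h was wider than at 0 h. At 12 h the signal was 36.4 and 23.1 in shNS, and 3.64 and 4.45 in lines D and E.

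Before actinomycin D the HSPA1A difference was -1.10 on the log2(signal + 1) scale (SE 0.34, limma adjusted p = 0.110), which did not pass. It was -3.07 at 8 h (SE 0.34, limma adjusted p = 0.00225) and -2.58 at 12 h (SE 0.34, limma adjusted p = 0.00957), against all-gene medians of -0.23 and 0.06. Line D had 0.0716 times and line E 0.149 times the mean shNS signal at 8 h. Over the 4 line means the difference was -2.25 (SE 0.24, limma adjusted p = 1.96e-07). With 4 means limma took most of the spread from other genes, and the member SEs all lay between 0.22 and 0.26. That p-value thus rests little on the spread of HSPA1A itself. HSPA1A was the 1 member whose knockdown libraries were both below both shNS libraries at all 3 times, as were 5.24% of all genes.

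Leaving out an shNS library removed some of these calls and most calls of the whole table with them. Replicate 1 of shNS was above replicate 2 at each time for HSPA1A. Without shNS replicate 1 at 8 h the 8 h difference was -2.78 (limma adjusted p = 0.0938, range over 20 alternatives 3.44e-91 to 0.0938), a setting that left 1 gene higher and 2 lower in the whole table. The 12 h call was lost without either shNS replicate at 12 h, at -2.26 (limma adjusted p = 0.189) without replicate 1 and -2.90 (limma adjusted p = 0.0551) without replicate 2; either way 1 gene higher and 0 lower were left. The call over line means was lost without shNS replicate 1, at -1.96 (limma adjusted p = 0.401, with 1 gene higher and 1 lower left), and under median-of-ratios scaling, at -2.31 (limma adjusted p = 0.143), a setting under which that comparison called no gene at all.

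In control cells HSPA1A was among the mRNAs that lasted through the first 8 h without transcription. The share of its 0 h signal left at 8 h was 87.3% and 81.3% in the shNS replicates, above 95.3% and 95.2% of all genes in the same libraries. In lines D and E it was 11.1% and 33.4%, above 11.7% and 49.5% of all genes. The all-gene medians at 8 h were 42.2% and 41.1% in shNS, with line D at 23.9% and line E at 33.6%. At 12 h 36.1% and 32.3% of HSPA1A was left in shNS against 7.75% and 13.6% in lines D and E. The shares of the 2 arms did not overlap at either time. All 8 members had a smaller share left in both lines than in both shNS replicates at 8 h, as did 82.5% of all genes, and at 12 h, as did 41.2%.

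DNAJB1 (chr19:14514770-14529770, minus strand) did not begin lower in the knockdown. Its signal at 0 h was 69.4 and 57.3 in shNS and 93.4 and 68.9 in lines D and E. At 8 h it was 18.8 and 12.2 in shNS and 4.42 and 5.88 in lines D and E. Line E was within the shNS range at 0 h and line D above it, and both were below both shNS libraries at 8 h. At 12 h the signal was 6.99 and 5.18 in shNS and 2.90 and 3.01 in the lines, again without overlap.

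The DNAJB1 difference was 0.34 at 0 h (SE 0.25, limma adjusted p = 0.442), -1.40 at 8 h (SE 0.25, limma adjusted p = 0.0175) and -0.83 at 12 h (SE 0.25, limma adjusted p = 0.124). The 8 h call was lost without shNS replicate 1 at 8 h (-1.11, limma adjusted p = 0.348), without shNS replicate 2 (-1.70, limma adjusted p = 0.0796) and without line D (-1.23, limma adjusted p = 0.101), and the adjusted p ranged from 1.80e-17 to 0.348 over 20 alternatives. DNAJB1 had the smallest share left of the 8 in every library at 8 h. Of its 0 h signal 27.1% and 21.3% was left in shNS at 8 h, and 4.73% and 8.54% in lines D and E. In lines D and E only 0.525% and 1.98% of all genes had a smaller share left, and in the shNS replicates 24.1% and 15.2%.

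**Figure D2:**
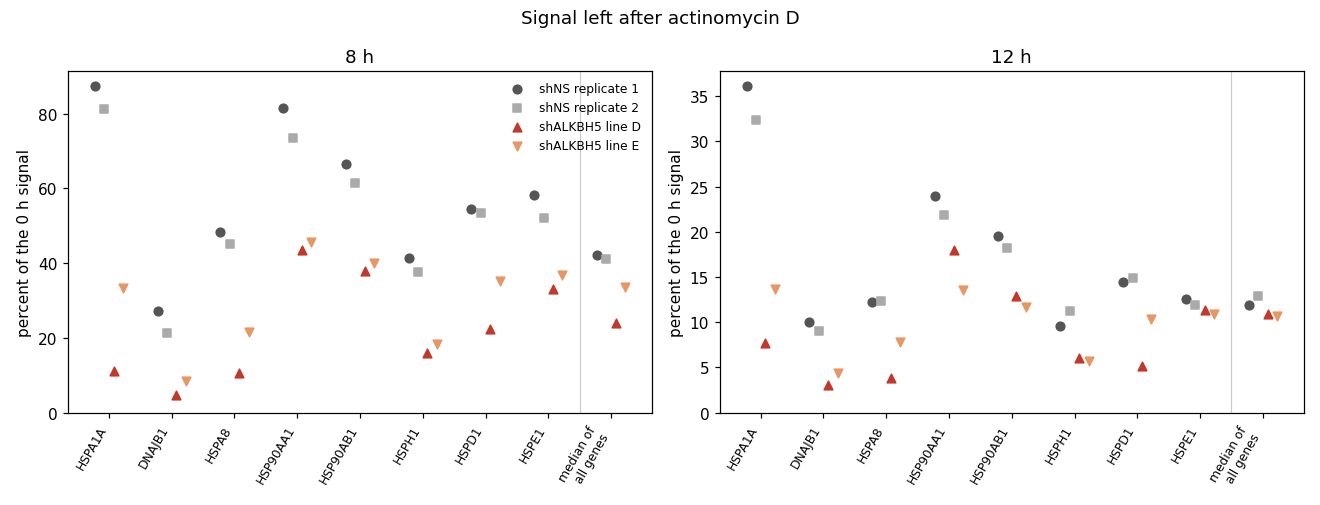
Percent of the 0 h signal left at 8 h and at 12 h for each chaperone, with 1 point per library, beside the median over all genes. At 8 h every chaperone has less left in lines D and E than in either shNS replicate, with HSPA1A at 87.3% and 81.3% in shNS and 11.1% and 33.4% in lines D and E; 82.5% of all genes have the same order at 8 h.

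HSPA8 (chr11:123057489-123063230, minus strand), the constitutive HSP70, stood out for 1 library. Its signal at 0 h was 505 and 483 in shNS, with line D at 1753 and line E at 536. Line D was thus at 3.55 times the shNS mean and line E at 1.08 times. The 0 h difference of 0.97 (SE 0.43, limma adjusted p = 0.211) did not pass, and without line E it was 1.82 (limma adjusted p = 0.0128). At 8 h the signal was 245 and 219 in shNS, with line D at 186 and line E at 116, both lines below the controls. At 12 h it was 61.9 and 59.7 in shNS, with line D at 67.4 and line E at 42.1, so the arms overlapped.

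The share of HSPA8 left at 8 h was 48.4% and 45.3% in shNS, with line D at 10.6% and line E at 21.6%. These shares did not overlap between the arms. Line D had the highest level at 0 h and the smallest share left, but the share divides by that 0 h signal. A high 0 h library lowers it by arithmetic, and at 8 h line D still had more signal (186) than line E (116).

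The 2 cytosolic HSP90 genes encode proteins with the same task, HSP90AA1 (chr14:102080738-102139699, minus strand) being the inducible form and HSP90AB1 (chr6:44246166-44253888, plus strand) the constitutive one. HSP90AA1 signal at 0 h was 260 and 253 in shNS, with line D at 627 and line E at 335. At 8 h it was 213 and 186 in shNS, with line D at 272 and line E at 153, and at 12 h 62.5 and 55.4 in shNS, with line D at 113 and line E at 45.3. Line D was above and line E below both shNS libraries at 8 and 12 h, and the knockdown difference of 0.83 at 0 h (SE 0.40, limma adjusted p = 0.241), 0.04 at 8 h and 0.28 at 12 h did not pass.

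HSP90AB1 signal at 0 h was 1481 and 1406 in shNS and 1563 and 1410 in lines D and E, so line D lay above both shNS libraries and line E between them. At 8 h it was 984 and 864 in shNS and 592 and 566 in the lines, and at 12 h 290 and 256 in shNS and 201 and 165 in the lines. Neither later time overlapped, yet the differences of -0.67 at 8 h (SE 0.19, limma adjusted p = 0.0586) and -0.58 at 12 h (SE 0.19, limma adjusted p = 0.145) did not pass. Leaving out line D or line E at 12 h, which changes only the shared spread, put the 8 h value past the threshold (limma adjusted p = 0.0280 and 0.0276, range over 20 alternatives 0.00112 to 0.492). At 8 h 66.4% and 61.4% of HSP90AB1 was left in shNS and 37.9% and 40.2% in lines D and E.

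HSPH1 (chr13:31134974-31162388, minus strand), an HSP110 protein that exchanges nucleotide on HSP70, had the highest positive estimate of the members at 0 h. Its signal was 27.3 and 23.4 in shNS, with line D at 77.8 and line E at 39.5, without overlap. The difference of 1.10 (SE 0.34, limma adjusted p = 0.109) did not pass, and it passed with a correlation within lines as a replicate block (limma adjusted p = 0.0289, range over 20 alternatives 1.17e-16 to 0.587). At 8 h the signal was 11.3 and 8.79 in shNS, with line D at 12.3 and line E at 7.30, and at 12 h 2.62 and 2.64 in shNS, with line D at 4.69 and line E at 2.26. At both later times the shNS values lay between the 2 lines.

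HSPD1 (chr2:197486581-197516737, minus strand) and HSPE1 (chr2:197499994-197503457, plus strand) encode partners in mitochondrial folding. HSPD1 signal was 622 and 558 in shNS and 700 and 796 in lines D and E at 0 h. It was 339 and 298 in shNS, with line D at 156 and line E at 281 at 8 h, and 90.1 and 83.3 in shNS, with line D at 36.4 and line E at 82.5 at 12 h. Line D had 0.490 times and line E 0.883 times the shNS mean at 8 h, and 0.420 and 0.952 times at 12 h, so line D stood apart from the other libraries.

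HSPE1 showed the other order of the lines. Its signal was 253 and 235 in shNS, with line D at 526 and line E at 333 at 0 h, then 147 and 122 in shNS, with line D at 175 and line E at 123 at 8 h. At 12 h it was 31.8 and 28.1 in shNS, with line D at 59.9 and line E at 36.4, both lines above the controls. The knockdown differences of HSPD1 (0.34, -0.60 and -0.65 at 0, 8 and 12 h) and HSPE1 (0.78, 0.13 and 0.63) did not pass, with limma adjusted p from 0.148 for HSPE1 at 0 h to 0.813 for HSPE1 at 8 h.

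Counting non-overlap shows how the members shifted with time in actinomycin D. At 0 h both knockdown libraries were above both shNS libraries for 5 of 8 members, as for 46.4% of all genes, and below for 1, as for 6.88%. At 8 h they were below for 5 (HSPA1A, DNAJB1, HSPA8, HSP90AB1 and HSPD1), as for 42.8%, and above for 0, as for 10.4%. At 12 h they were below for 4, as for 25.0%, and above for HSPE1 alone, as for 33.0%. The shares of members at 0 h higher and at 8 h lower were near the background. The median log2 difference of the members was 0.56 at 0 h, -0.62 at 8 h and -0.38 at 12 h, beside 0.23, -0.23 and 0.06 over all genes; median-of-ratios scaling moves these all-gene medians to -0.01, 0.02 and 0.01. Over all genes it changed the calls from 127 higher and 13 lower to 9 and 26 at 0 h, from 40 and 430 to 367 and 322 at 8 h, and from 50 and 47 to 807 and 776 at 12 h.

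**Figure D3:**
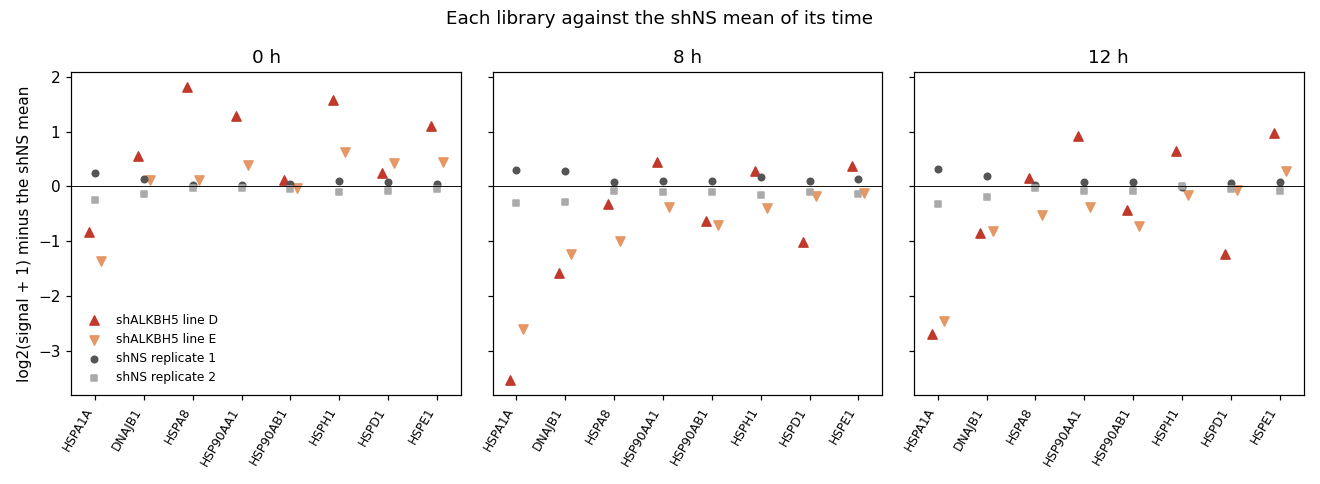
Difference in log2(signal + 1) of each library from the mean of the 2 shNS libraries of the same time, for the 8 chaperones at 0, 8 and 12 h. HSPA1A lies below 0 in lines D and E at each time, and HSPA8, HSP90AA1, HSPH1 and HSPE1 of line D lie above 1 at 0 h.

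Each line was also set alone against shNS. Line D alone had 5 of 8 members higher at 0 h (DNAJB1, HSPA8, HSP90AA1, HSPH1 and HSPE1), against 43.4% of all genes, and HSPA1A lower, against 9.17%. At 8 h it had 2 higher (7.51%) and 4 lower (48.7%), and at 12 h 3 higher (28.5%) and 4 lower (14.6%). Line E alone had 2 higher at 0 h (HSPH1 and HSPE1), against 18.6%, and HSPA1A lower, against 3.19%. It had 0 higher (8.1%) and 4 lower (19.6%) at 8 h, and 0 higher (9.84%) and 4 lower (13.6%) at 12 h. These calls take their spread from the shNS libraries, since a lone knockdown library per time is assumed to vary like them.

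Within the control arm, 6 of 8 members fell by 8 h, against 82.2% of all genes called lower. The exceptions were HSPA1A (-0.24, SE 0.34, limma adjusted p = 0.507) and HSP90AA1 (-0.37, SE 0.40, limma adjusted p = 0.395), which passed with the replicate block (limma adjusted p = 0.0302). HSPA8 and HSPD1 lost the call without any 1 of the 4 shNS libraries compared. HSP90AB1 and HSPE1 lost it without shNS replicate 1 at 0 h or shNS replicate 2 at 8 h. Each such fit leaves 1 library in a group, and each called fewer of all genes too. The all-gene median was -1.07 without replicate 1 at 0 h and -1.06 without replicate 2 at 8 h. DNAJB1 had the steepest estimate, -1.99 (SE 0.25), and the median of the members was -0.87 beside -1.15 over all genes. By 12 h all 8 had fallen in shNS, against 99.5% of all genes lower, from -1.52 for HSPA1A to -3.19 for DNAJB1. Between 8 and 12 h all 8 fell in shNS as well (98.3% of all genes lower), with a member median of -1.75 beside -1.34.

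In the knockdown arm all 8 members fell by 8 h, against 96.0% of all genes lower. Their estimates ran from -1.16 for HSP90AA1 to -3.73 for DNAJB1, with a median of -2.02 beside -1.66 over all genes. By 12 h all 8 had fallen (99.6% lower), with a median of -3.42 beside -2.80, and all 8 fell between 8 and 12 h (93.0% lower), with a median of -1.47 beside -1.06. Without line E at 12 h, which leaves 1 library in that group, fewer members and fewer of all genes passed from 8 to 12 h. The all-gene median was then -0.96. With all 12 libraries the counts lay close to the background and are not a result about the chaperones. Under median-of-ratios scaling, which removes that general loss, 6 of the 8 estimates for the first 8 h in shNS were above 0, as were 52.1% of all genes, HSPA1A at 1.04 and HSP90AA1 at 0.93 being the highest.

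The question that the time course poses, whether the fall differed between arms, had an answer that depended on how the lines were modelled. All 8 members had a more negative estimate in the knockdown than in shNS by 8 h, from -1.98 (SE 0.49) for HSPA1A, -1.75 (SE 0.36) for DNAJB1 and -1.62 (SE 0.61) for HSPA8, through -1.16 for HSPH1, -0.94 for HSPD1, -0.79 for HSP90AA1 and -0.71 for HSP90AB1, to -0.65 for HSPE1. All lay below the all-gene median of -0.48. The HSPA8 estimate, which includes the high line D library at 0 h, ranged from -2.48 to -0.77 over 21 alternatives. With 12 libraries taken as independent, limma called 0 of 8 members and 0.0% of all genes, the member adjusted p lying between 0.299 and 0.361. At an unadjusted p under 0.05 there were 5 of 8 members (HSPA1A, DNAJB1, HSPA8, HSP90AB1 and HSPH1) and 16.4% of all genes.

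With each line or replicate number as a fixed replicate block, 8 of 8 members were called lower for the 8 h difference, against 26.1% of all genes. The limma adjusted p was then 9.24e-13 for HSPA1A, 4.30e-09 for DNAJB1, 6.01e-09 for HSPA8, 0.000736 for HSPH1, 0.00372 for HSPD1, 0.0126 for HSP90AA1, 0.0315 for HSP90AB1 and 0.0327 for HSPE1. Member SEs in this fit all lay between 0.23 and 0.26, because limma took nearly all of the spread from other genes. These p-values therefore do not measure the spread of each gene by itself. The knockdown libraries of a hairpin number are the same line, while no source says that an shNS replicate number marks 1 culture over time. With the block and median-of-ratios scaling together, chosen after seeing the data, 0 of 8 were called lower, against 0.0105% of all genes. The estimates were then -1.502 for HSPA1A, -1.23 for DNAJB1, -1.07 for HSPA8, -0.60 for HSPH1, -0.39 for HSPD1, -0.24 for HSP90AA1, -0.16 for HSP90AB1 and -0.10 for HSPE1, beside an all-gene median of 0.03.

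Alone against shNS, line D had 8 of 8 members lower for the 8 h difference (65.6% of all genes) and 5 of 8 for the 12 h difference (11.0%), and line E had 4 of 8 (0.986%) and 2 of 8 (2.16%).

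By 12 h the same difference was called for 0 of 8 members and 0.0% of all genes without the block, and 3 of 8 (HSPA1A, DNAJB1 and HSP90AB1) had an unadjusted p under 0.05 against 3.54%. The estimates were -1.48 (SE 0.49) for HSPA1A, -1.17 (SE 0.36) for DNAJB1 and -1.16 (SE 0.61) for HSPA8, and -0.15 for HSPE1, beside an all-gene median of -0.19. The block called 5 of 8 lower (HSPA1A, DNAJB1, HSPA8, HSPD1 and HSPH1) against 2.19% of all genes. With the block and median-of-ratios scaling, 3 of 8 were called lower against 1.74%, namely HSPA1A (limma adjusted p = 0.0383), DNAJB1 (0.0350) and HSPH1 (0.0496).

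Between the 2 knockdown lines 5 members were called. Over all 3 times line D was above line E by 1.02 for HSPA8 (SE 0.19, limma adjusted p = 2.94e-06), 1.01 for HSP90AA1 (SE 0.19, limma adjusted p = 3.28e-06), 0.82 for HSPH1 (SE 0.19, limma adjusted p = 0.000188) and 0.62 for HSPE1 (SE 0.19, limma adjusted p = 0.00651). It was below line E by -0.73 for HSPD1 (SE 0.19, limma adjusted p = 0.00136). These are 4 of 8 higher against 13.5% of all genes and 1 of 8 lower against 14.5%. The test compares libraries of 2 lines with no replicate of either hairpin. Its SE was 0.19 to 0.20 for every member, because limma took nearly all of the spread from other genes. It does not measure how far the difference of a gene, such as HSPA8, varied between times.

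HSP90AA1 and HSPH1 kept this call under all 17 alternatives run. HSPA8 lost it without line D at 0 h, where the estimate was 0.48 (limma adjusted p = 0.0542). HSPD1 lost it without line D at 8 h (-0.59, limma adjusted p = 0.0725) or at 12 h (-0.47, limma adjusted p = 0.207), and HSPE1 without line D at 12 h (0.56, limma adjusted p = 0.0733) or line E at 8 h (0.53, limma adjusted p = 0.128). HSPA1A (-0.22), HSP90AB1 (0.16) and DNAJB1 (0.01) were not called between the lines.

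Ratios of paired chaperones within a library do not depend on the scaling of that library. The ratio of HSPA1A to HSPA8 signal, inducible to constitutive HSP70, was 0.199 and 0.148 in shNS at 0 h and 0.589 and 0.387 at 12 h. In line D it was 0.0268 at 0 h and 0.0540 at 12 h, and in line E 0.0608 and 0.106. All knockdown ratios were below all shNS ratios. The ratio of HSP90AA1 to HSP90AB1 was 0.176 and 0.180 in shNS at 0 h, with line D at 0.401 and line E at 0.238, and at 12 h it was 0.216 in both shNS replicates, with line D at 0.563 and line E at 0.275.

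The ratio of HSPD1 to HSPE1 separated line D from every other library. It was 2.46 and 2.37 in shNS at 0 h and 2.83 and 2.97 at 12 h. In line E it was 2.39, 2.29 and 2.27 at 0, 8 and 12 h, and in line D 1.33, 0.893 and 0.608. These ratios were given no test.

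**Figure D4:**
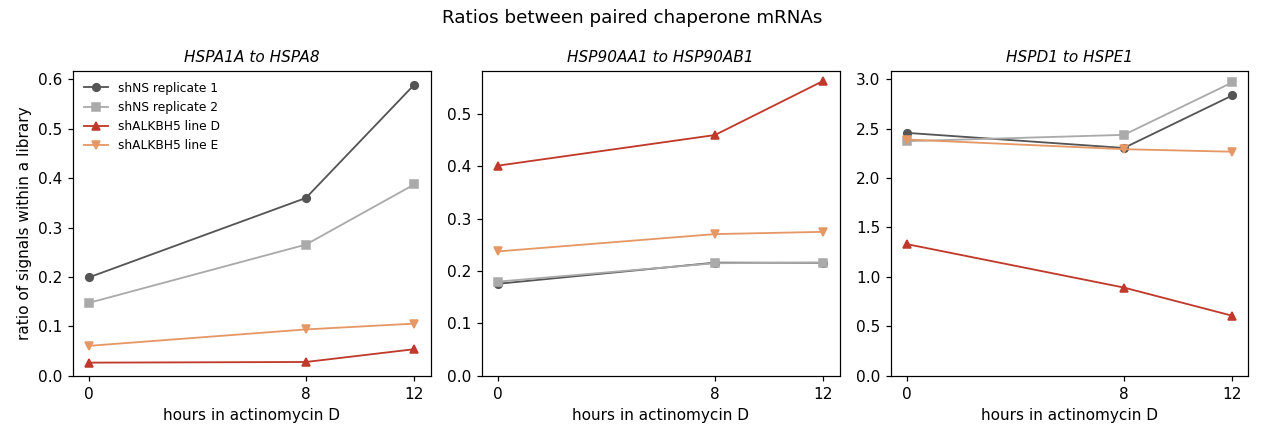
Ratio of the signals of paired chaperone mRNAs within each library against hours in actinomycin D: HSPA1A to HSPA8, HSP90AA1 to HSP90AB1 and HSPD1 to HSPE1. The first ratio is lower in lines D and E than in shNS at each time. The ratio of HSP90AA1 to HSP90AB1 is higher in both lines than in shNS at each time, and highest in line D. The ratio of HSPD1 to HSPE1 sets line D apart from the remaining libraries.

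Across the 12 libraries, after the mean of the 4 libraries of each time was subtracted, the members fell into different patterns. HSP90AA1 went with HSPH1 (Pearson r = 0.946) and HSPE1 (0.918), and HSPA1A went with HSP90AB1 (0.901) and DNAJB1 (0.874). HSPA1A and HSPE1 ran opposite to each other (-0.516), as did HSP90AA1 and HSPD1 (-0.493). These values describe 12 libraries that share 4 lines and the same scaling.

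The genes most like each member by the same measure were not other chaperones. They were LMO7 (0.990), DYM and RUFY1 for HSPA1A, MRPL30 (0.986), CEP78 and CLNS1A for DNAJB1, and KIAA1211L (0.983), G3BP2 and UBLCP1 for HSPA8. For HSP90AA1 they were H2AFZ (0.993), HNRNPA3 and GALNT14, for HSP90AB1 TAOK3 (0.988), MPRIP and EIF2S2, and for HSPH1 GATS (0.991), KHSRP and FABP5. For HSPD1 they were HNRNPUL1 (0.987), ACAT2 and PTDSS1, and for HSPE1 ETF1 (0.989), ABCF2 and SNRPG.

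Few other genes of the protein-folding network were called between the arms. Of the 87 genes in the lists 2.3% were higher at 0 h, against 1.33% of all genes. They were 2 of 24 HSP70 partners in the table, DNAJB2 (1.18, limma adjusted p = 0.0385), a J-domain protein, and HSPBP1 (0.94, limma adjusted p = 0.0468), a nucleotide exchange factor. None of 8 heat shock factors and other induced genes, 16 HSP90 co-chaperones, 17 CCT and prefoldin genes or 22 mitochondrial proteostasis genes was called at 0 h. At 8 h 3 of the 87 genes were lower (3.45%, against 4.51% of all genes): HSPA4 (limma adjusted p = 0.0311, signal 23.6 and 19.8 in shNS and 11.0 and 9.68 in lines D and E), an HSP110 relative of HSPH1, PFDN4 (-0.93, limma adjusted p = 0.0342), a prefoldin subunit, and IER5 (-0.91, limma adjusted p = 0.0456), a stress-induced regulator of heat shock factor 1. At 12 h none of these genes was called, and averaged over the times DNAJB2 alone was higher (0.81, limma adjusted p = 0.0153), 1.15% of the lists against 2.72% of all genes. These shares are near the background. The list medians at 0 h ran from 0.26 to 0.39 beside 0.23 over all genes, and at 8 h from -0.27 to -0.19 beside -0.23.

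Between the lines, 10 of the 24 HSP70 partners were higher in line D and none was lower, against 13.5% and 14.5% of all genes, with a median of 0.37 beside 0.02 over all genes. Of the 87 genes of the lists together 19.5% were higher and 2.3% lower. Among the called HSP70 partners the largest differences were those of DNAJC13 (0.66), DNAJA1 (0.62), DNAJC2 (0.57) and DNAJC5 (0.57), all J-domain proteins. HSBP1 (1.00), which binds heat shock factor 1, and CHORDC1 (0.57), an HSP90-binding protein, were higher among the 8 heat shock factors and induced genes. STIP1 (0.57), which links HSP70 to HSP90, and TSC1 (0.56) were higher among the 16 HSP90 co-chaperones, and PDCL3 (0.75) and CCT5 (0.58) among the 17 CCT and prefoldin genes. Of the 22 mitochondrial genes DNAJC15 (0.50) was higher and SPG7 (-0.61), a protease subunit, and CLPX (-0.51), the unfoldase partner of a protease, were lower.

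The transcripts of the members differ in features that the choice of genes did not use. For each gene the principal protein-coding transcript of GENCODE 29 was taken, or the longest where none was marked principal. That of HSPA1A has 1 exon, as do 1.45% of the 8752 genes of the table with a protein-coding transcript, and that of HSPH1 has 18. GGACT, a core form of the sequence at which N6-methyladenosine is placed, occurs on the sense strand 5 times in the 2264 bases of DNAJB1 (2.21 per kb), 3 times in the 2483 bases of HSPA1A (1.21 per kb) and 0 times in HSPA8 and HSP90AB1, beside a median of 0.935 per kb over those genes, of which 8.75% have none. HSPE1 has 1 in 950 bases, HSPD1 1 in 2455, HSP90AA1 1 in 3379 and HSPH1 2 in 5191. A match of these letters is a description, and methylation was not measured in these libraries.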

How the data were processed

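The deposited table holds, for 12 poly(A) RNA libraries, a normalised expression signal per gene, and the sources used here do not give how the authors scaled it. STAR, RSEM and GRCh38 are named in the submitters' processing notes, with no versions. The table has 9529 genes and 46 ERCC spike-ins, no value at 0 and a lowest gene value of 0.338. No counts or read depths were used, so the depth behind a value is unknown and no count model was run.

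Values were analysed as log2(signal + 1), which understates changes of low genes, with limma 3.58.1 in R 4.3.3 (trend, empirical Bayes), over all genes and all 12 libraries as 6 group means, with Benjamini-Hochberg adjustment. Across times the 4 line means were compared, and between lines the model held time and line. Same-numbered libraries deviated together in the knockdown (r from 0.657 to 0.900 between times), and less in shNS (0.0651 to 0.271). Alternatives were median-of-ratios and ERCC scaling, a pseudocount of 0.1, genes with a mean of at least 5, no trend, a replicate block, each line alone, and leaving out each library. All 8 members were named in every comparison, with ALKBH5 as the check, up to 4 called genes of each context list and the 3 most alike genes. Markers of other cell types are not reported here. The members, lists and tests were chosen with earlier results of these data known. Promoter windows came from RefSeq (GRCh38.p14) and gene coordinates and transcripts from GENCODE 29 (GRCh38).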

Additional observations from a re-analysis of the deposited data

Results flagged for a closer look

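For 5 chaperones the 2 knockdown lines differed from each other by a test of the difference itself, although both are compared with the same controls. Line D minus line E over all 3 times, on the log2(signal + 1) scale, was 1.02 for HSPA8, 1.01 for HSP90AA1, 0.82 for HSPH1 and 0.62 for HSPE1, and -0.73 for HSPD1. Between the lines limma called 13.5% of all genes higher and 14.5% lower in line D. Each line is 1 library per time, so the difference compares these libraries and not replicated hairpins.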

How the results depend on the processing

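Median-of-ratios scaling sets the median gene to no change and so turned several estimates positive by its construction: by 8 h in shNS HSPA1A 1.04, HSPA8 0.21, HSP90AA1 0.93, HSP90AB1 0.66, HSPD1 0.41 and HSPE1 0.44; by 12 h in shNS HSPA1A 1.44, HSP90AA1 0.89, HSP90AB1 0.61 and HSPD1 0.25; by 8 h in the knockdown HSP90AA1 0.69, HSP90AB1 0.50, HSPD1 0.023 and HSPE1 0.34; by 12 h in the knockdown HSP90AA1 0.52, HSP90AB1 0.17 and HSPE1 0.038. The added replicate block with this scaling, chosen after seeing the data, has the same estimates. Under this scaling 2 members were called higher and 1 lower by 8 h in shNS (4 and 1 with the block), 2 and 0 by 12 h (3 and 1), 0 lower from 8 to 12 h (1 with the block), 1 higher and 1 lower by 8 h in the knockdown (3 and 3), 1 lower by 12 h (1 higher and 4 lower), and 0 lower from 8 to 12 h (1 higher and 0 lower). Over all genes this scaling called 18.9% higher and 23.6% lower by 8 h in shNS (35.9% and 33.9% with the block), 24.6% and 27.0% by 12 h (37.3% and 37.1%), 21.3% and 23.7% by 8 h in the knockdown (36.3% and 34.1%), 22.1% and 24.2% by 12 h (35.0% and 35.8%), and 0 from 8 to 12 h in either arm (8.37% and 6.07% in shNS and 5.09% and 3.53% in the knockdown with the block). It also gave HSP90AB1 -0.21 at 0 h, HSPH1 0.21 at 8 h and HSPE1 0.049 for the difference of the change by 12 h. Called lower were 3 members at 12 h, against 8.14% of all genes, and 0 across times, where 0 genes were called. ERCC scaling gave HSPH1 0.042 at 8 h and DNAJB1 -0.0086 between lines, and the pseudocount of 0.1 DNAJB1 -0.0078 between lines. HSPA8 across times was -0.42 without the 0 h libraries. The cause was not tested.

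The replicate block called 1 member higher at 0 h, against 3.15% of all genes. For the difference of the change it called 8 lower by 8 h (26.1% of all genes) and 5 lower by 12 h (2.19%). With median-of-ratios scaling the 12 h count was 3 (1.74%). The block moved no other count of members between the arms. The 12 libraries taken as independent gave 1 higher and 2 lower across times, against 11.9% and 9.14% of all genes. A line alone is a lone library per time, assumed to vary like the others, and its small p-values rest on the spread of shNS. Line D alone gave 5 higher and 1 lower at 0 h, 2 and 4 at 8 h, 3 and 4 at 12 h, and 8 and 5 lower for the difference of the change by 8 and 12 h, with HSPH1 0.28 at 8 h and HSPA8 0.15 at 12 h. Line E alone gave 2 higher and 1 lower at 0 h, 4 lower at 8 h and at 12 h, and 4 and 2 lower for the difference, with HSP90AB1 -0.033 at 0 h, HSP90AA1 -0.37 at 8 h and -0.37 at 12 h, HSPE1 -0.13 at 8 h and HSPH1 -0.16 at 12 h. Each line alone across times is the fit without the other line.

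Leaving out 1 library or line, members called higher ranged from 0 to 2 at 0 h and from 0 to 3 across times, and members called lower from 0 to 3 at 8 h, from 0 to 2 at 12 h, from 0 to 3 across times, from 2 to 6 by 8 h in shNS, from 3 to 8 from 8 to 12 h in the knockdown and from 0 to 2 between lines. Each such fit leaves 1 library in a group, or 1 line in an arm. The share of all genes called changed under the same fits, so these ranges of counts are not a result about the chaperones. Estimates that crossed 0 ranged from -0.45 to 0.39 (DNAJB1) and -0.84 to 0.30 (HSPA1A) between lines, -0.033 to 0.11 (HSP90AB1) at 0 h, -0.37 to 0.45 (HSP90AA1), -0.13 to 0.38 (HSPE1) and -0.40 to 0.28 (HSPH1) at 8 h, -0.37 to 0.93 (HSP90AA1), -0.52 to 0.15 (HSPA8) and -0.16 to 0.65 (HSPH1) at 12 h, -0.54 to 0.052 (HSPA1A) by 8 h in shNS, -1.20 to 0.10 (HSP90AA1) and -0.50 to 0.20 (HSPE1) for the difference of the change by 12 h, and -0.12 to 0.89 (HSP90AA1), -0.46 to 0.55 (HSPA8) and -0.67 to 0.064 (HSPD1) across times. HSPA1A kept its sign in each comparison of the arms under every alternative run.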
